A study of Mus musculus with 16 samples.

Results

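CXCL1, CXCL2, CXCL3, CXCL5 and LOC100044702 were followed across 16 arrays of cultured mouse mammary fibroblasts. They were chosen by name from earlier results of these arrays, in which CXCL1 and LOC100044702 had the largest rises with tumor-conditioned medium in MEKK1-/- cells. Of the 5, 4 had a row in the table of 18132 gene symbols, and CXCL5 was not analysed here. LOC100044702 is a locus symbol of the array's design that is described as chemokine-like. It matched no gene of the RefSeq tables, so its transcript, and whether its probe also binds CXCL1 transcripts, cannot be told from the files.

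The fibroblasts were primary cultures from the inguinal mammary glands of female 129S6 mice aged 8 to 10 weeks, grown in DMEM with fetal bovine serum. The groups were untreated MEKK1+/+ cells, MEKK1+/+ cells with CM, untreated MEKK1-/- cells and MEKK1-/- cells with CM, with 4 arrays each. CM stands for conditioned medium, growth medium taken from cultures of MDA-MB-231, a human breast tumor cell line. It was left on the cells for 8 h, and untreated cells received fresh growth medium. MEKK1 is the kinase encoded by MAP3K1, and the comparisons ask how mammary stroma cells respond to tumor cell products with and without it. By the study's account each genotype had fewer mice than a group has arrays, so some arrays of every group share an animal. The labels tie no array to a mouse, so p-values measure the spread between cultures and not between animals.

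Some facts of the arrays bear on every result. The median intensity of an array was 114 to 170, and the lowest correlation between arrays of a group was 0.964. The level of olfactory receptor genes, which fibroblasts are not known to use, was taken as background: its 99th percentile was between 7.20 and 7.34 on the normalized log2 scale. MAP3K1 itself had a mean log2 level of 8.24 untreated and 8.07 with CM on arrays with the MEKK1-/- label, above the 7.71 and 7.74 of MEKK1+/+ arrays. The part of the gene its probe covers is not given in the sources used here, so it checks nothing about the labels, and directions between genotypes rest on them. All 4 arrays numbered 2 were nearer to the other genotype than to their own group. Untreated MEKK1+/+ replicate 2 correlated on average at 0.987 with the untreated arrays labelled MEKK1-/- and at 0.975 with its own group, and untreated MEKK1-/- replicate 2 at 0.987 with untreated MEKK1+/+ arrays and at 0.977 with its own group. With CM the averages of replicate 2 were 0.982 with the other genotype and 0.976 with its own group for MEKK1+/+, and 0.982 and 0.979 for MEKK1-/-. Whether the labels of these arrays were exchanged was not tested. The members' differences are given with all arrays and without these.

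CXC chemokines are small secreted proteins that guide leukocytes. Those with a glutamate-leucine-arginine motif before the first cysteines, among them CXCL1, CXCL2, CXCL3 and CXCL5, bind the receptor CXCR2 and draw neutrophils out of the blood into inflamed tissue. Stromal cells and macrophages make them when interleukin-1, tumor necrosis factor or microbial products activate the transcription factor NF-kB, and their transcripts are short-lived. The genes lie side by side in the mouse genome. In the RefSeq annotation of GRCm38.p6 the order on chromosome 5 was Rassf6, Cxcl5, Ppbp, Pf4, Cxcl3, Cxcl15, Cxcl1, Cxcl2 and Mthfd2l.

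Sequence upstream of the transcript start was at hand for 3 of the genes, and it is shown because CXCL1 and CXCL2 moved together and the genes share short motifs there. The 150 bases before each start, from RefSeq on GRCm38.p6, plus strand, lie at chr5:90891095-90891244 for Cxcl1, chr5:90903749-90903898 for Cxcl2 and chr5:90785951-90786100 for Cxcl3. Capitals mark matches to GGAATTTCC, a form of the motif that NF-kB binds, and to ATAAAAG, a form of the box where the general transcription machinery binds:
Cxcl1: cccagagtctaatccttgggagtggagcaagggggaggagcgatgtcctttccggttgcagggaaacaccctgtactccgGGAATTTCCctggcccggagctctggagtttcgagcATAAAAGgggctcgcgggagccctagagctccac
Cxcl2: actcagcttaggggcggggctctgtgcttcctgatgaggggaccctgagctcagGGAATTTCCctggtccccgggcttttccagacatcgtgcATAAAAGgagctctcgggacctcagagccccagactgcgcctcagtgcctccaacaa
Cxcl3: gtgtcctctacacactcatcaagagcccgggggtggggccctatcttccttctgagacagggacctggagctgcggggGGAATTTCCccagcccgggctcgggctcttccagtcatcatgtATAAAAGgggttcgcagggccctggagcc

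All 3 held both motifs in the same order. GGAATTTCC began 70 bases before the start in Cxcl1, 96 in Cxcl2 and 72 in Cxcl3, and ATAAAAG began 34, 57 and 29 bases before it. Over the 250 bases upstream of 32851 RefSeq starts, read on both strands, GGAATTTCC was in 0.286% and ATAAAAG in 4.83%. The AP-1-type motif TGANTCA, which was in 6.75%, was in none of the 3 windows. The matches do not overlap each other. A match describes the letters and not a bound site.

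**Figure D1:**
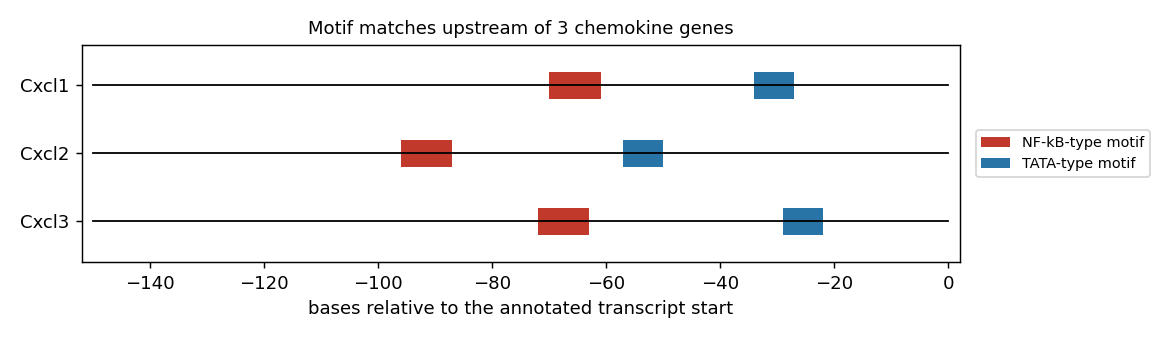
Position of the motif matches in the 150 bases upstream of Cxcl1, Cxcl2 and Cxcl3 (x axis: bases relative to the annotated transcript start). The NF-kB-type match lies upstream of the TATA-type match in all 3 genes, and both lie farthest from the start in Cxcl2.

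CXCL1, known in the mouse as KC, is a neutrophil attractant and was the most variable member between untreated cultures. Its normalized log2 level on untreated MEKK1+/+ replicates 1 to 4 was 13.96, 9.44, 13.69 and 15.18. On untreated MEKK1-/- replicates 1 to 4 it was 10.43, 13.76, 10.11 and 10.24. Replicate 2 was the lowest array of the first group and the highest of the second, and the lowest and highest untreated MEKK1+/+ cultures were 53.3-fold apart. With CM this spread was narrow. The levels were 15.39, 14.49, 15.11 and 14.97 in MEKK1+/+ cells, and 15.14, 15.20, 15.18 and 15.14 in MEKK1-/- cells. The lowest and highest MEKK1-/- cultures with CM were 1.04-fold apart. Untreated MEKK1+/+ replicate 4 already lay among the arrays with CM.

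CXCL1 was above background on 16 of 16 arrays, and its deposited intensity ran from 863 to 40710. On the arrays with CM it stood at 51.1% to 97.0% of the brightest gene of the array. How far the upper end of the scanner's range narrowed the values with CM was not tested. Before normalization the SD of the 4 MEKK1-/- arrays with CM was 0.133 on the log2 scale, against 0.031 after it.

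LOC100044702 had the same pattern. In untreated MEKK1+/+ cells its normalized log2 level was 11.05, 7.90, 10.65 and 12.84 on replicates 1 to 4, and in untreated MEKK1-/- cells 8.01, 10.73, 7.69 and 7.99. With CM it was 12.62, 11.68, 12.66 and 12.59 in MEKK1+/+ cells and 12.52, 12.23, 12.33 and 12.27 in MEKK1-/- cells. Among untreated arrays replicate 2 was again the lowest of the MEKK1+/+ group and the highest of the MEKK1-/- group. Its values also cleared background on 16 of 16 arrays.

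CXCL2, known as MIP-2 and a ligand of the same receptor, spread less between untreated cultures. Its normalized log2 level was 8.83, 6.90, 8.55 and 9.91 on untreated MEKK1+/+ replicates 1 to 4 and 6.86, 8.32, 7.06 and 6.80 on untreated MEKK1-/- replicates 1 to 4. With CM it was 10.99, 9.29, 10.25 and 10.74 in MEKK1+/+ cells and 9.56, 10.07, 9.69 and 9.92 in MEKK1-/- cells. It cleared background on 12 of 16 arrays: all 8 with CM, 3 of 4 untreated MEKK1+/+ arrays and 1 of 4 untreated MEKK1-/- arrays. The untreated arrays on which CXCL2 was at background are the 4 with the lowest CXCL1.

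CXCL3, the third ligand of the cluster with a row, lay between 6.64 and 6.94 on the normalized log2 scale and cleared background on 0 of 16 arrays. Only this bound can be given, and no difference was computed for it.

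**Figure D2:**
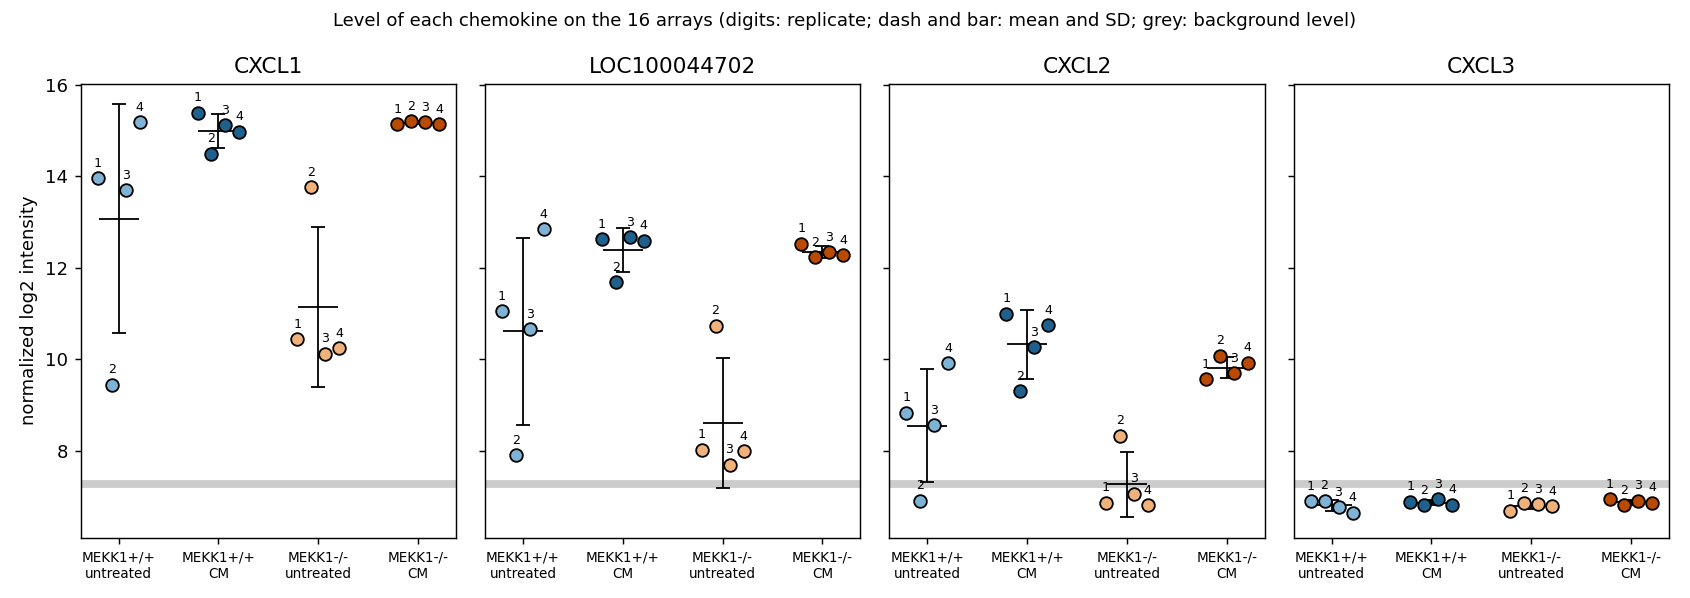
Normalized log2 intensity (y axis) of CXCL1, LOC100044702, CXCL2 and CXCL3 on each array of the 4 groups (x axis), with replicate numbers, the group mean and its SD, and the background level in grey. With CM the points of CXCL1 lie between 14.49 and 15.39, while untreated points spread from 9.44 to 15.18 and those numbered 2 lie at the opposite end of their groups, and CXCL3 lies below the grey band on every array.

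The order of the group means was MEKK1-/- untreated, MEKK1+/+ untreated and then the groups with CM for all 3 members above background. For CXCL1 the means were 11.14 ± 1.75, 13.07 ± 2.50, 14.99 ± 0.38 (MEKK1+/+ with CM) and 15.16 ± 0.031 (MEKK1-/- with CM; SD, n = 4 each). For LOC100044702 they were 8.61 ± 1.42, 10.61 ± 2.04, 12.39 ± 0.47 and 12.34 ± 0.13 in the same order of groups (SD, n = 4 each). For CXCL2 they were 7.26 ± 0.72, 8.55 ± 1.24, 10.32 ± 0.75 and 9.81 ± 0.23 (SD, n = 4 each). Neighbours in this order overlapped for every member, so no group separated from the next.

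The 3 members above background varied together between cultures. Over the 16 arrays Pearson's r between normalized log2 levels was 0.988 for CXCL1 and LOC100044702, 0.944 for CXCL1 and CXCL2, and 0.964 for CXCL2 and LOC100044702. With group means removed the values were 0.977, 0.898 and 0.920, and without both untreated arrays numbered 2 (14 arrays) 0.992, 0.951 and 0.962. The points share the array, its RNA and its scaling. The log2 difference between CXCL1 and LOC100044702 on an array had an SD of 0.39, against 2.18 for CXCL1 itself. If their probes share transcripts, these are not separate measurements.

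**Figure D3:**
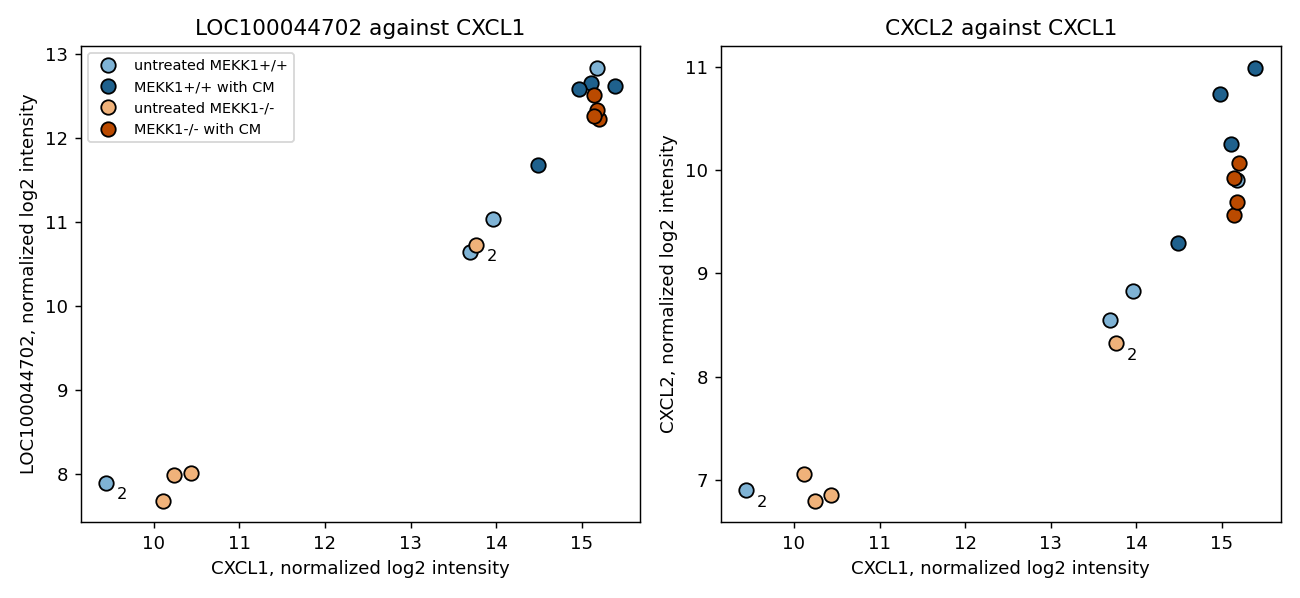
Normalized log2 intensity of LOC100044702 (left) and CXCL2 (right) against CXCL1 on the 16 arrays, colored by group, with the untreated arrays numbered 2 marked. Untreated MEKK1+/+ replicate 2 lies at the low end with 3 untreated MEKK1-/- arrays (CXCL1 from 9.44 to 10.43), and untreated MEKK1-/- replicate 2 lies with 2 untreated MEKK1+/+ arrays (CXCL1 from 13.69 to 13.96).

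Other genes followed the members over the 16 arrays. The genes most like CXCL1, among 8794 above background on at least 4 arrays, were SOD2, the mitochondrial superoxide dismutase (r = 0.978), CCL2, a monocyte attractant (r = 0.973), and ZC3H12A, which encodes an RNase that degrades cytokine transcripts (r = 0.965). LOC100044702 was most like SOD2 (r = 0.983), ZC3H12A (r = 0.982) and ADORA2B, an adenosine receptor (r = 0.972). CXCL2 was most like ADORA2B (r = 0.979), ZC3H12A (r = 0.976) and MICALL2 (r = 0.961). These are Pearson correlations of normalized log2 levels and are given as a description.

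The first comparison asked what CM did in MEKK1+/+ fibroblasts. CXCL1, CXCL2 and LOC100044702 were higher on average with CM, but none passed the test over all genes. CXCL2 was 3.42-fold higher (log2 difference 1.77, SE 0.52), and 3 of 4 cultures with CM lay above all untreated ones (limma adjusted p = 0.0646; 2-sided exact permutation p = 0.0571). CXCL1 was 3.78-fold higher (log2 difference 1.92, SE 0.97; limma adjusted p = 0.349; exact permutation p = 0.114). LOC100044702 was 3.43-fold higher (log2 difference 1.78, SE 0.80; limma adjusted p = 0.273; exact permutation p = 0.143). Thus 0 of 3 members were called, where 5.01% of all genes were (909 genes, 411 higher and 498 lower). Likewise 0 of 3 had groups that did not overlap, where 4.68% of all genes were higher without overlap. The smallest p that 4 against 4 arrays allow in the exact test is 0.0286. Neither test pairs arrays of the same number, and the labels do not state that they are pairs. By replicate number, CXCL2 was higher with CM on replicates 1 to 4. CXCL1 and LOC100044702 were higher with CM on replicates 1 to 3 and lower on replicate 4. In these bulk samples fewer cells of a type and less RNA per cell cannot be told apart.

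These values rested on single untreated arrays. Without untreated MEKK1+/+ replicate 2 the log2 difference was 0.71 for CXCL1, 1.22 for CXCL2 and 0.87 for LOC100044702. Without untreated MEKK1+/+ replicate 4 it was 2.62, 2.22 and 2.52, and CXCL2 was then called (limma adjusted p = 0.0154). CXCL2 was also called without MEKK1+/+ replicate 2 with CM (limma adjusted p = 0.0367) and without all 4 arrays numbered 2 (limma adjusted p = 0.0200), where its log2 difference was 1.56 and those of CXCL1 and LOC100044702 were 0.87 and 1.10. In that fit 2.53% of all genes were called, and without the untreated pair 0 of 3 members and 2.90% of all genes were. By the z-score method of the study, which sets a difference against the spread over genes and not over arrays, 3 of 3 members and 1.29% of all genes were called.

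In MEKK1-/- fibroblasts CM gave the larger differences, which are described without a test because the members were selected on this contrast. CXCL1 was 16.3-fold higher with CM (log2 difference 4.03), LOC100044702 13.3-fold (3.73) and CXCL2 5.85-fold (2.55). CXCL2 was above background on 1 of the 4 untreated arrays, so its difference is compressed at the low end. All 4 cultures with CM lay above all 4 untreated ones for each of these 3 members, where 4.90% of all genes were higher without overlap. Without both untreated arrays numbered 2 the log2 differences in MEKK1-/- cells were 4.91, 4.43 and 2.89.

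The next comparison set untreated MEKK1-/- against untreated MEKK1+/+ fibroblasts. It shares the untreated MEKK1-/- arrays with the contrast that chose the members. CXCL1 was lower on average in MEKK1-/- cells (log2 difference −1.93, SE 0.97; limma adjusted p = 0.562; exact permutation p = 0.343). CXCL2 was lower by a log2 difference of −1.29 (SE 0.52; limma adjusted p = 0.515; exact permutation p = 0.0857), and LOC100044702 by −2.01 (SE 0.80; limma adjusted p = 0.511; exact permutation p = 0.2). None of these 3 differences passed by limma with all arrays. CXCL2 was above background on 1 of 4 untreated MEKK1-/- arrays, so its difference is compressed at the low end. By limma 0% of all genes were called here, with 1680 genes at an unadjusted p under 0.05, of which 2 were members. Without both untreated arrays numbered 2, a choice made after the values were seen, 3 of 3 members were called. Over all genes 174 were then called (0.960%, 47 higher and 127 lower with MEKK1 deleted). Without all 4 arrays numbered 2 it was 3 of 3 members and 2.11% of all genes. By the z-score method it was 3 of 3 members and 1.22% of all genes. The genotypes separated without overlap, MEKK1-/- lower, for 0 of 3 members and for 2.01% of all genes.

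This comparison turned on the arrays numbered 2. Without both of them, a choice made after the values of these genes were seen, the log2 difference in untreated cells was −4.02 (SE 0.30) for CXCL1, −3.60 (SE 0.43) for LOC100044702 and −2.17 (SE 0.39) for CXCL2. Then CXCL1 was between 13.69 and 15.18 on 3 MEKK1+/+ arrays and between 10.11 and 10.43 on 3 MEKK1-/- arrays. CXCL2 was below background on each of those 3 MEKK1-/- arrays, so its difference is compressed at the low end. Leaving out a single array gave log2 differences from −3.14 to −1.23 for CXCL1, from −2.90 to −1.26 for LOC100044702 and from −1.82 to −0.83 for CXCL2, and no member was called. Without all 4 arrays numbered 2 the differences were −3.99, −3.61 and −2.20 for CXCL1, LOC100044702 and CXCL2. The ends of each range were without untreated MEKK1+/+ replicate 2 and without untreated MEKK1+/+ replicate 4.

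With CM on both genotypes the members lay close together. This comparison shares the treated MEKK1-/- arrays with the contrast that chose the members. CXCL1 differed by 0.18 on the log2 scale (MEKK1-/- minus MEKK1+/+, 95% interval −1.90 to 2.25; limma adjusted p = 0.974; exact permutation p = 0.486), by −0.066 when every array was set to the same median and by −0.0034 without all 4 arrays numbered 2. LOC100044702 differed by −0.05 (−1.76 to 1.66; limma adjusted p = 0.992; exact permutation p = 0.914), and by 0.025 on the values as deposited, so neither sign held. CXCL2 differed by −0.51 (−1.61 to 0.60; limma adjusted p = 0.810; exact permutation p = 0.257). No member was called, against 0.00552% of all genes (1 gene). The intervals draw on the spread of all 4 groups. In a fit of the groups with CM alone they ran from −0.19 to 0.54 for CXCL1, from −0.51 to 0.42 for LOC100044702 and from −1.24 to 0.22 for CXCL2.

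The difference between the genotypes' responses was positive for all 3 members and is given without a test, since it contains the contrast that chose them. The log2 response in MEKK1-/- cells exceeded that in MEKK1+/+ cells by 2.11 (SE 1.38) for CXCL1, 1.96 (SE 1.14) for LOC100044702 and 0.78 (SE 0.73) for CXCL2. Without both untreated arrays numbered 2 the values were 4.20, 3.55 and 1.66, and without all 4 arrays numbered 2 they were 3.98, 3.37 and 1.27. Each value equals the genotype difference with CM minus the one in untreated cells, which for CXCL1 were 0.18 and −1.93 with all arrays. It therefore carries the untreated difference and its dependence on the arrays numbered 2. Untreated arrays below background limit these values for CXCL2. How far the upper end of the scanner's range limits them for CXCL1 was not tested.

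**Figure D4:**
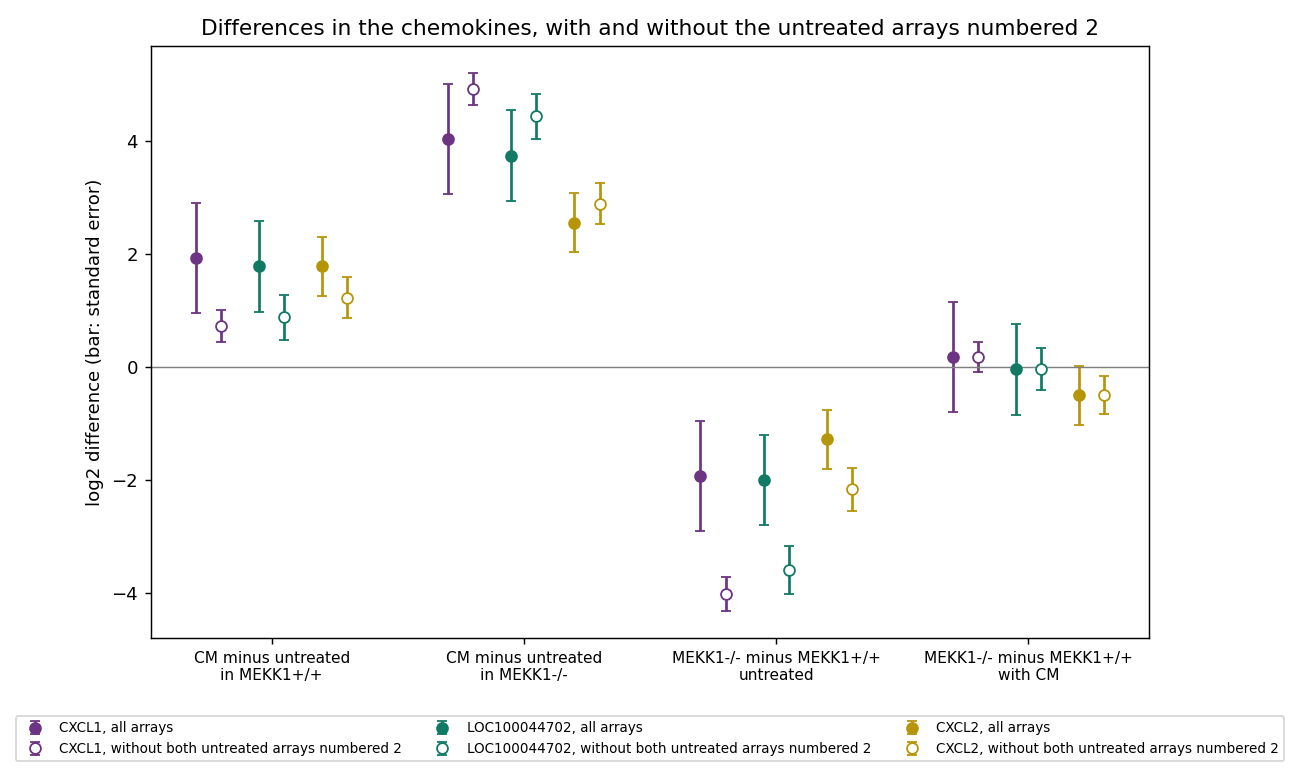
Log2 difference (y axis) with its standard error for CXCL1, LOC100044702 and CXCL2 in the 4 contrasts (x axis), from all arrays (filled) and without both untreated arrays numbered 2 (open). The open points lie nearer 0 for CM in MEKK1+/+ cells (0.72 against 1.92 for CXCL1) and farther from 0 between untreated genotypes (−4.02 against −1.93).

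Markers of other cell types were set beside these levels. Macrophages are a source of these chemokines, and 19 of their marker genes were listed, of which 9 were above background on all 16 arrays and 3 on none (FCER1G, MSR1 and ITGAM). Untreated MEKK1+/+ arrays had a summed normalized intensity of these genes of 13035 at the lowest, 29718 at the median and 44072 at the highest, and untreated MEKK1-/- arrays one of 5808, 10257 and 29601. With CM the same 3 values were 12098, 29643 and 35657 for MEKK1+/+ arrays and 6155, 10840 and 27040 for MEKK1-/- arrays. The sum was lowest in untreated MEKK1+/+ cells on replicate 2 and highest in untreated MEKK1-/- cells on replicate 2, the arrays on which CXCL1 stood apart. The same held with CM, where replicate 2 had the lowest sum of the MEKK1+/+ arrays and the highest of the MEKK1-/- arrays. In untreated MEKK1-/- cells and in MEKK1+/+ cells with CM, all arrays had the same order by sum and by CXCL1. In untreated MEKK1+/+ cells the orders differed: replicate 4 had the highest untreated CXCL1 but a sum of 24538, below the 44072 of replicate 1. They also differed on MEKK1-/- arrays with CM, where CXCL1 hardly varied. Between untreated genotypes the median log2 difference of the 19 markers was −0.74, against 0.01 over all genes, and 0 of the 19 were called. Without the untreated arrays numbered 2 it was −1.20, with 3 called lower (EMR1, CSF1R and CD14), where 0.960% of all genes were called. Without all 4 arrays numbered 2, 6 were called lower (also LYZ2, C1QB and C1QC), where 2.11% of all genes were called. Between genotypes with CM the median was −0.64 with all arrays, and 0 were called. Without all 4 arrays numbered 2, 4 were called lower with CM (EMR1, CSF1R, CD14 and C1QB), where 0.662% of all genes were called. The part of these markers in the difference between untreated genotypes was not tested.

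With CM the marker sum and CXCL1 were set side by side within each genotype. On MEKK1-/- replicates 3 and 4 with CM the marker sum was 6155 and 6883 and CXCL1 was 15.18 and 15.14. On replicate 2 of that group the sum was 27040 and CXCL1 was 15.20. On MEKK1+/+ replicate 2 with CM the sum was 12098 and CXCL1 was 14.49, both the lowest of that group, whose other sums were 25716 to 35657 and other CXCL1 levels 14.97 to 15.39. The near-ceiling brightness of CXCL1 with CM limits this comparison. Between CM and untreated cells the 19 markers had a median log2 difference of −0.04 (MEKK1+/+) and −0.03 (MEKK1-/-).

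**Figure D5:**
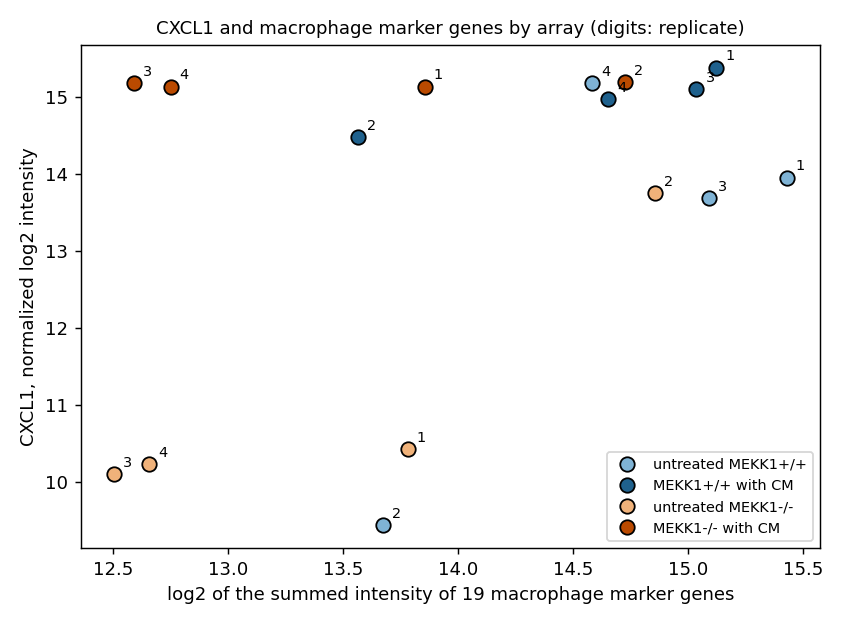
Normalized log2 intensity of CXCL1 (y axis) against log2 of the summed intensity of 19 macrophage marker genes (x axis) on the 16 arrays, colored by group, with replicate numbers. The 4 MEKK1-/- arrays with CM had CXCL1 between 15.14 and 15.20 across sums from 6155 to 27040, and among MEKK1+/+ arrays replicate 2 had the lowest sum and the lowest CXCL1 both untreated and with CM.

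Neutrophil marker genes were mostly at background. Of 9 neutrophil marker genes 6 were at or below background on every array, among them CSF3R, the receptor of granulocyte colony-stimulating factor, and MPO, myeloperoxidase, and their summed intensity was between 1029 and 5343. S100A8, a calcium-binding protein that neutrophils and monocytes share, varied from 6.90 to 11.81 on the log2 scale, and both MEKK1+/+ arrays numbered 4 were its highest (11.77 untreated and 11.81 with CM). The labelled cell type was borne out by 11 fibroblast marker genes, of which 10 were above background on all 16 arrays. Among them only PDGFRA, a growth factor receptor, passed the test with CM when all arrays were used. It was 0.95 higher on the log2 scale in MEKK1+/+ cells and 1.00 higher in MEKK1-/- cells (limma adjusted p = 0.0256 and 0.0204). Without all 4 arrays numbered 2 PDGFRA was not called in MEKK1+/+ cells (limma adjusted p = 0.0875), where COL1A2 was (2.53% of all genes). COL1A2 was also called in MEKK1+/+ cells without both untreated arrays numbered 2 (2.90% of all genes). Epithelial markers were summed at 1466 to 1668 in MEKK1+/+ cells and reached 11848 on an untreated MEKK1-/- array. None of the 11 epithelial, 7 endothelial, 4 fat and 6 lymphocyte marker genes was called in any contrast.

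The rest of the chemokine locus did not pass the test in any contrast with all arrays. PPBP, CXCL4 and CXCL15, whose genes lie among the members, gave 0 of 3 calls. CXCL4, which platelets release and RefSeq names Pf4, was above background on 16 of 16 arrays and had log2 levels of 12.90, 9.57, 11.64 and 11.62 on untreated MEKK1+/+ replicates 1 to 4. Its log2 difference with CM was 0.25 in MEKK1+/+ cells (limma adjusted p = 0.941) and 0.43 in MEKK1-/- cells (limma adjusted p = 0.893). CXCL15 cleared background on 0 of 16 arrays. Replicate 2 was again the lowest of its group for CXCL4, as for the members, and without all 4 arrays numbered 2 CXCL4 was called lower in untreated MEKK1-/- cells (limma adjusted p = 0.0449).

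Of 8 other CXC ligands, which mostly attract lymphocytes or monocytes, 0 were called in MEKK1+/+ cells and 1 in MEKK1-/- cells, where 4.69% of all genes were called. That gene was CXCL16, a membrane-anchored ligand, with a log2 difference of 2.13 in MEKK1-/- cells (limma adjusted p = 0.0169) and 1.31 in MEKK1+/+ cells (limma adjusted p = 0.144). With both untreated arrays numbered 2 left out it was also called lower in untreated MEKK1-/- cells (limma adjusted p = 0.0357). None of 8 receptor genes was called in any contrast. IL8RA and IL8RB, the older symbols of CXCR1 and CXCR2, and DARC, a receptor that binds chemokines without signaling, cleared background on 0 of 16 arrays.

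Signals known to induce these chemokines were represented by 19 genes. In MEKK1+/+ cells 1 of them fell with CM (5.01% of all genes were called), TNFRSF1A, the main receptor of tumor necrosis factor (log2 difference −0.61, SE 0.13; limma adjusted p = 0.0114), and in MEKK1-/- cells 0 were called (4.69% of all genes). Without all 4 arrays numbered 2 TNFRSF1A was not called (limma adjusted p = 0.0552). The median log2 difference of the 19 was 0.00 and 0.06, against 0.00 over all genes in both genotypes. IL1B, the inducer interleukin-1 beta, missed the threshold but varied as the members did. Its log2 level was 10.07, 6.88, 9.57 and 11.43 on untreated MEKK1+/+ replicates 1 to 4 and 6.87, 9.40, 6.84 and 6.94 on untreated MEKK1-/- replicates 1 to 4. Replicate 2 was again the lowest of the first group and the highest of the second. With CM the log2 difference of IL1B was 1.87 in MEKK1+/+ cells (limma adjusted p = 0.285) and 2.69 in MEKK1-/- cells (limma adjusted p = 0.0991). With both untreated arrays numbered 2 left out these were 1.00 (limma adjusted p = 0.529) and 3.30 (limma adjusted p = 0.00806), and IL1B was then called between untreated genotypes (log2 difference −3.45, limma adjusted p = 0.0293). IL1B was above background on 3 of 4 untreated MEKK1+/+ arrays and 1 of 4 untreated MEKK1-/- arrays. The untreated MEKK1-/- arrays left in the reduced fit were all below it. These differences are therefore compressed at the low end. With untreated values raised to background, IL1B was 5.26-fold higher with CM in MEKK1-/- cells, over all arrays. IL1B was not alone in the fit without both untreated arrays numbered 2. There 4 of the 19 were called higher with CM in MEKK1-/- cells (IL1B, IRAK3, TLR2 and IL6), where 4.52% of all genes were called. Between untreated genotypes 5 were called lower with the MEKK1-/- label (IL1B, TNF, IRAK3, TLR2 and IL6), where 0.960% of all genes were called.

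Of 16 NF-kB subunits and regulators 1 rose with CM in MEKK1+/+ cells and 5 rose in MEKK1-/- cells. Of all genes 5.01% and 4.69% were called in either direction. NFKB2, the p100 subunit, rose in both, by 0.93 on the log2 scale in MEKK1+/+ cells (SE 0.19; limma adjusted p = 0.0113) and by 1.28 in MEKK1-/- cells (limma adjusted p = 0.00152). The others in MEKK1-/- cells were NFKBIA, the inhibitor that NF-kB itself induces (1.89), NFKBIZ, a nuclear cofactor (2.02), BCL3 (0.88) and TNIP1 (1.26), all as log2 differences with limma adjusted p between 0.0173 and 0.0469. Their log2 differences in MEKK1+/+ cells were 1.08, 1.32, 0.66 and 1.08, with limma adjusted p between 0.0816 and 0.293. With the replicate number as a block shared by both genotypes, 3 of the 5 were called in MEKK1-/- cells (4.61% of all genes). NFKBIA and TNIP1 were not (limma adjusted p = 0.0702 and 0.0696). Without both untreated arrays numbered 2, 9 of the 16 were called higher with CM in MEKK1-/- cells (4.52% of all genes were called). In the other genotype it was 1 (2.90% of all genes). Between untreated genotypes 5 were then called lower with the MEKK1-/- label (NFKBIA, NFKBIE, NFKBIZ, TNFAIP3 and TNIP1), where 0.960% of all genes were called. NFKB2 was not called in MEKK1+/+ cells without all 4 arrays numbered 2 (limma adjusted p = 0.0529), where TNIP1 was (limma adjusted p = 0.0230). Over the 16 genes the median log2 difference came to 0.33 (MEKK1+/+) and 0.57 (MEKK1-/-), against 0.00 over all genes in both.

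Of 6 genes that set the stability of such transcripts, 0 were called in MEKK1+/+ cells. Of all genes 5.01% were called there and 4.69% in MEKK1-/- cells. In MEKK1-/- cells ZC3H12A rose by 1.97 on the log2 scale (limma adjusted p = 0.0101), and ZFP36, a protein that promotes decay of cytokine transcripts, fell by 0.79 (limma adjusted p = 0.00164). Their log2 differences in MEKK1+/+ cells were 1.13 and −0.32 (limma adjusted p = 0.134 and 0.174). Without both untreated arrays numbered 2, ZC3H12A was called lower in untreated MEKK1-/- cells (log2 difference −1.67, limma adjusted p = 0.0175), where 0.960% of all genes were called. Without all 4 arrays numbered 2, ZC3H12A and ZFP36L1 were called lower there, with 2.11% of all genes called.

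Genes that act beside these chemokines in leukocyte recruitment included several calls. Of 13, 4 were called higher with CM in MEKK1+/+ cells, and the same 4 symbols in MEKK1-/- cells, where 5.01% and 4.69% of all genes were called in either direction. ICAM1, the adhesion molecule that holds neutrophils on endothelium, rose 6.35-fold in MEKK1+/+ cells (log2 difference 2.67, SE 0.33; limma adjusted p = 0.000434). CSF2, the growth factor GM-CSF, was above background on 1 of 4 untreated MEKK1+/+ arrays and on 0 of 4 untreated MEKK1-/- arrays. With untreated values raised to background it rose at least 4.97-fold in MEKK1+/+ cells and at least 5.52-fold in MEKK1-/- cells. Its limma adjusted p was 0.00839 and 0.00342, from the fit of the values that were not raised. MMP9, a gelatinase, rose 5.95-fold in MEKK1+/+ cells (limma adjusted p = 0.0309), a call that was lost with the replicate block (limma adjusted p = 0.0576) and without both untreated arrays numbered 2 (limma adjusted p = 0.107). SELE, the endothelial selectin, was the fourth call, but it was at or below background on 16 of 16 arrays, so no fold is given. Over the 13 genes the median log2 difference came to 1.31 (MEKK1+/+) and 1.74 (MEKK1-/-), against 0.00 over all genes in both, and to 0.54 and 2.06 without both untreated arrays numbered 2. The calls in MEKK1+/+ cells then numbered 3, without MMP9 (2.90% of all genes). ICAM1 alone was called without all 4 arrays numbered 2 (2.53% of all genes).

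ICAM1 showed less spread between untreated cultures than CXCL1. Its log2 levels were 9.61, 8.40, 9.76 and 10.13 on untreated MEKK1+/+ replicates 1 to 4 and 12.01, 12.15, 12.44 and 11.95 with CM, so the groups did not overlap, unlike those of CXCL1. None of the pathway genes listed was called between genotypes, untreated or with CM, when all arrays were used. Without both untreated arrays numbered 2, ICAM1, VCAM1, SAA3 and IL6 of the recruitment genes were called lower in untreated MEKK1-/- cells (0.960% of all genes were called). With CM, TNF, IRAK3 and TNIP1 were called lower in MEKK1-/- cells when all 4 arrays numbered 2 were left out (0.662% of all genes).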

How the data were processed

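Gene intensities of 16 Illumina Mouse 8 arrays, 4 per group, were used as deposited by the authors: 1 linear intensity value per gene symbol, normalized by the array facility in a way not given in the sources used here. Groups were taken from the labels. The study's methods z-score the arrays. Here intensities were set to log2 and quantile normalized (limma 3.58.1, R 4.3.3). A single model (lmFit, eBayes) held all 4 groups, and p-values were adjusted over 18132 genes by Benjamini-Hochberg at 0.05. Members were also compared by a 2-sided exact permutation test. A gene was above background where it exceeded the 99th percentile of 1075 olfactory receptor genes on that array, and 8251 genes never did. Precision is limited by the number of arrays.

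The members, gene lists, tests and alternatives were chosen with earlier results of these data known. No p-value is given for CM in MEKK1-/- cells or for the difference of responses. Named genes were the members, each list gene called in MEKK1+/+ cells or between genotypes, and the 3 genes most correlated with each member; others, and the sequence motifs, were named after their values were seen. The fit was tested on simulated data. Columns of authors' comparisons were not used. Alternatives included other scalings, filters, the z-test, array weights, a replicate block and each array left out in turn. Same-numbered arrays were checked for pairing by the correlation of their deviations from group means. Between untreated and CM arrays it was 0.505, 0.403, 0.219 and 0.251 for replicates 1 to 4 of MEKK1-/- cells. For MEKK1+/+ cells it was −0.038, 0.485, 0.120 and 0.576. Between genotypes it ran from −0.575 to −0.099 in untreated cells and from −0.263 to 0.234 with CM.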

Additional observations from a re-analysis of the deposited data

Results flagged for a closer look

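Of 16 checks for an array far from the other 3 of its group (4 genes in 4 groups, Dixon's ratio at its 95% critical value), 4 were positive. Chance alone marks about 5% of such checks, and the genes are not independent. Untreated MEKK1-/- replicate 2 was far above its group for CXCL1 (13.7592 on the normalized log2 scale), for CXCL2 (8.32426) and for LOC100044702 (10.729). MEKK1+/+ replicate 2 with CM was far below its group for LOC100044702 (11.6785).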

How the results depend on the processing

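Over the alternatives, 227 test results kept their direction and side of the threshold, 17 were newly past it and 8 changed sign, while 148 values without a test stayed within the spread between arrays and 5 moved beyond it. The genes called for CM in MEKK1+/+ cells numbered 909, and 233 by the z-test of the methods, 591 with only these groups fitted, 506 to 1007 with a single array left out (541, 506 and 552 without untreated MEKK1+/+ replicate 2, untreated MEKK1+/+ replicate 3 and MEKK1+/+ replicate 4 with CM), 525 without both untreated arrays numbered 2 and 458 without all 4 arrays numbered 2. Members called there were 0, and 3 by the z-test (1.29% of all genes), 1 without all 4 arrays numbered 2, 0 without the untreated pair (2.90% of all genes), 1 with genes above the median level (CXCL2, limma adjusted p = 0.0348), 1 with array weights (CXCL2, limma adjusted p = 0.0205) and 0 to 1 with an array left out (CXCL2, without untreated MEKK1+/+ replicate 4 or MEKK1+/+ replicate 2 with CM). Members called between untreated genotypes were 0, and 3 by the z-test (1.22% of all genes), 3 without both untreated arrays numbered 2 (0.960%) and 3 without all 4 arrays numbered 2 (2.11%). The cause of these changes was not tested. The log2 difference of LOC100044702 between genotypes with CM changed sign to 0.0252 on the values as deposited, to 0.00418 on z-scores and by the z-test, and ran from −0.285 to 0.0423 with an array left out; that of CXCL1 changed to −0.0658 with the same median on every array and −0.00336 without all 4 arrays numbered 2. Leaving out the arrays numbered 2 was chosen after seeing the data. With the replicate number as a block shared by both genotypes, 915 genes and 0 members were called for CM in MEKK1+/+ cells. CXCL2 then had a limma adjusted p of 0.0877, and the block changed no member's call. Same-numbered deviations were not alike across genotypes (correlation −0.575 for replicate 2 of untreated cells). This block therefore cannot check pairing within a genotype. Among the list genes named, NFKBIA, TNIP1 and SELE in MEKK1-/- cells and MMP9 in MEKK1+/+ cells lost their call with the block. Z-scores were not run for values without a test, whose unit would differ. Levels near background limit CXCL2 and leave CXCL3 unmeasured.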
